A study of Homo sapiens with 24 samples.

Results

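HMGA2, HMGA1, LIN28A, LIN28B, IGF2BP1, IGF2BP2 and IGF2BP3 are genes of a fetal growth program that the let-7 microRNAs hold down. They were taken by symbol from the count table, 1 entry each, as 7 of its 36468 entries, and all 7 had a total of at least 10 counts and entered the tests. Of the 7, HMGA2 had drawn attention through its values in these same libraries. The study selected it on its expression in these libraries, as a gene that weighed heavily on principal components separating vehicle from TGF-β and from IL-4+IL-13. Its differences among those treatments are therefore given as a description, without a test. The other 6 genes were chosen for their link to let-7, with earlier results of these data known, and tested with all entries.

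The cultures were sensory neurons differentiated from the human embryonic stem cell line that the labels call H9WAO9, through vagal neural crest cells. For 5 days the cultures received PBS with 0.1% bovine serum albumin as vehicle, TGF-β at 2 ng/ml, or IL-4 at 10 ng/ml together with IL-13 at 3 ng/ml. The remaining group received IL-6, whose dose and duration are not given in the sources used here. Each group had 6 libraries of polyadenylated RNA, 1 from each of 6 batches, so that every batch held all 4 treatments of 1 cell line. A library came from a whole culture that also held cells other than neurons. In such bulk samples, fewer cells of a type and less RNA per cell cannot be told apart. Library totals lay between 33342682 and 39817784 counts.

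The let-7 family is a set of small RNAs that accumulate as stem and progenitor cells mature. LIN28A and LIN28B are RNA-binding proteins that block the maturation of let-7 precursors, and their own messenger RNAs are let-7 targets, which closes a double-negative loop. HMGA2 and HMGA1 are architectural chromatin proteins that bind the minor groove of AT-rich DNA, and the IGF2BP proteins bind messenger RNAs and affect their stability, localisation and translation. HMGA2 is abundant in embryonic tissue, is a textbook let-7 target and is known as a gene that TGF-β signalling through SMAD proteins can induce in epithelial cells.

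The let-7 sequences are shown because they define what the 7 genes share. All 9 mature RNAs of the family that were read from RefSeq on GRCh38.p14 carried the same seed at bases 2 to 8, here in capitals, and 4 of them are printed.
hsa-let-7a-5p: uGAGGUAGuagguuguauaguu
hsa-let-7d-5p: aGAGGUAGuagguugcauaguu
hsa-let-7g-5p: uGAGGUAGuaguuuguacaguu
hsa-miR-98-5p: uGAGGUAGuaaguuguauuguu

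The 7 letters that pair with the seed, CTACCTC, were searched on the transcript strand in the 3′ untranslated region of 1 MANE Select transcript per gene. HMGA2, LIN28B and IGF2BP1 each held 4 matches, and HMGA1, LIN28A, IGF2BP2 and IGF2BP3 held 1 each. Of all 18780 such regions, 9.85% held at least 1 match and 0.192% at least 3. Long regions hold more: among 2374 regions similar in length to that of HMGA2 (2999 bases), 14.9% held at least 1. A match is a string of letters and not a measured binding site, and the genes were chosen as let-7 targets, so the matches describe the choice. The 12 matches of the genes with 4, and that of IGF2BP3, are printed with the match in capitals, on GRCh38.
HMGA2 match 1, chr12:65963298-65963327, plus strand: gccaacgttcgatttCTACCTCagcagcag
HMGA2 match 2, chr12:65964533-65964562, plus strand: ccccactactcaataCTACCTCtgaatgtt
HMGA2 match 3, chr12:65964945-65964974, plus strand: ttgacttgcaaagacCTACCTCcagacttc
HMGA2 match 4, chr12:65965798-65965827, plus strand: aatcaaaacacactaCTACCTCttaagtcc
LIN28B match 1, chr6:105078812-105078841, plus strand: acccggttgcaaagtCTACCTCatgcaagt
LIN28B match 2, chr6:105081239-105081268, plus strand: tactgatgatagtaaCTACCTCtgagtttg
LIN28B match 3, chr6:105081421-105081450, plus strand: gtttacagcaaaaggCTACCTCatagttga
LIN28B match 4, chr6:105082860-105082889, plus strand: aaatgatggtgttgaCTACCTCttgaatca
IGF2BP1 match 1, chr17:49051061-49051090, plus strand: tgtgtgcgaagtaaaCTACCTCaaggtatg
IGF2BP1 match 2, chr17:49053698-49053727, plus strand: cagcagtgctagtaaCTACCTCacagagcc
IGF2BP1 match 3, chr17:49054352-49054381, plus strand: gtataaatggattaaCTACCTCaatcctta
IGF2BP1 match 4, chr17:49054997-49055026, plus strand: tcacttttgttttatCTACCTCttagcaaa
IGF2BP3 match 1, chr7:23311788-23311817, minus strand: tgcatttttactcaaCTACCTCaggtattc

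All printed matches lie in annotated 3′ untranslated sequence. HMGA2 spans 65824460 to 65966291 on the plus strand of chromosome 12, and of its 7 protein-coding GENCODE transcripts 6 held at least 1 match. Gene counts do not separate these transcripts. The span of HMGA2 overlaps RPSAP52, HMGA2-AS1 and HMGA2-AS2, that of LIN28B overlaps LIN28B-AS1, that of IGF2BP2 (chromosome 3, 185643130 to 185825042) overlaps IGF2BP2-AS1, and that of IGF2BP3 overlaps MALSU1. Whether the libraries were stranded is not stated, so reads of these genes and of partners on the opposite strand cannot be told apart.

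Before the results, 2 features of the libraries need to be given. In batch 1 the summed level of 10 neuron markers in the vehicle library was 15.57 on the scale of log2(normalized counts + 1), against 16.68 to 17.53 in batches 2 to 6, and that of 9 mesenchymal markers was 18.54, against 16.82 to 18.20. A summed level adds the normalized counts of a list before the logarithm, so its most abundant genes weigh most. In the mesenchymal list these were COL1A1 and COL1A2, with vehicle means of 111431 and 98735.5, against 15640.5 for COL3A1, the next. The vehicle library of batch 2 correlated less with its own batch (mean r = 0.0073 over 3 libraries, after the treatment means were removed) than with batch 4 (r = 0.46). That of batch 4 likewise correlated more with batch 2 (0.43) than with its own batch (0.14), and the other 3 libraries of batch 4 were closer to batch 3. HMGA2 is given with and without the vehicle of batch 2 in each comparison with vehicle.

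HMGA2 was highest with TGF-β and lowest with IL-4+IL-13 in nearly every batch. In vehicle cultures its normalized count was 748.0 at the lowest, 1176 at the median and 7040 at the highest. With TGF-β the corresponding values were 1958, 2437 and 9923, and with IL-4+IL-13 they were 401.2, 589.8 and 2175. Under IL-6 HMGA2 had a lowest value of 1043, a median of 1246 and a highest of 6405. With batch 1 included, the 4 ranges overlapped. In batches 2 to 6 the TGF-β range, 1958 to 2929, lay above those of vehicle (748.0 to 1272) and IL-4+IL-13 (401.2 to 1434). It overlapped that of IL-6 (1043 to 2255). TGF-β gave the highest of the 4 libraries in 6 of 6 batches. IL-4+IL-13 gave the lowest in 5 of 6 batches, and in batch 2 the vehicle was lowest.

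**Figure D1:**
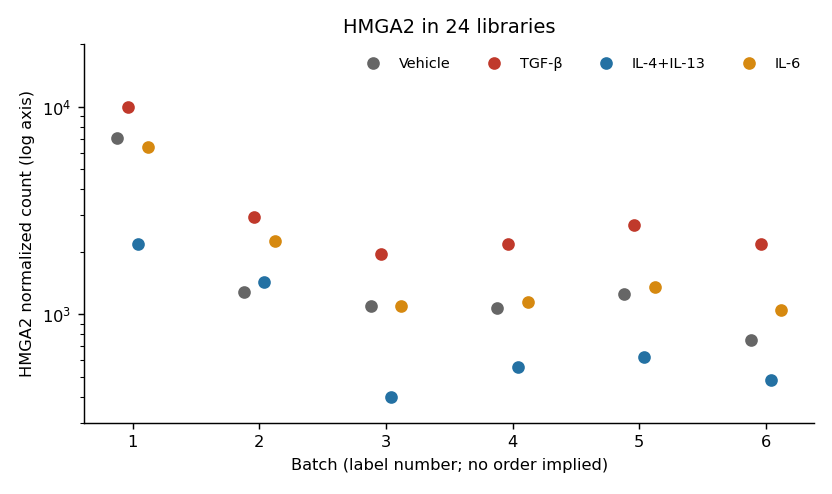
Normalized HMGA2 count (log axis) of each of the 24 libraries against the batch number, colored by treatment. The TGF-β library is the highest of its batch in all 6, and IL-4+IL-13 is the lowest in all but batch 2.

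Within batches, HMGA2 was higher with TGF-β than with vehicle by log2 differences of 0.50 to 1.54, with a mean of 1.03 ± 0.35 (SD, n = 6). As a ratio, the smallest of these was 1.41-fold, in batch 1, and the largest 2.92-fold, in batch 6. All 6 batches had the same sign, as did 4.17% of all 29377 entries tested in that comparison. The fitted fold was 2.01. Without the vehicle library of batch 2 the fitted log2 fold change was 0.89, against 1.01 with it, and without all of batch 1 it was 1.12.

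With IL-4+IL-13, HMGA2 was lower than in vehicle in 5 batches, with log2 differences of -1.69 to -0.63, and higher by 0.17 in batch 2. The mean difference was -0.93 ± 0.66 (SD, n = 6), and the fitted fold was 0.53. A same sign in all 6 batches was seen for 4.08% of all entries and not for HMGA2. Leaving out the batch 2 vehicle moved the fitted log2 fold change from -0.92 to -1.06. Leaving out batch 1, where the difference was largest, moved it to -0.76.

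The direct contrast sets the cytokine treatments against each other, while its fit takes the spread from all 24 libraries, vehicle included. There HMGA2 was higher with TGF-β than after IL-4+IL-13 in 6 of 6 batches, by 1.95 to 2.28 log2 units in 5 of them and by 1.03 in batch 2. The mean was 1.96 ± 0.47 (SD, n = 6) and the fitted fold 3.81. The shared sign has a background of 9.8% of all entries. In batch 2 the IL-4+IL-13 library held 1434 normalized counts of HMGA2, against 401.2 to 620.1 in batches 3 to 6, while the TGF-β library of batch 2 held 2929.

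With IL-6 no change of HMGA2 passed the test. The log2 difference was between -0.14 and 0.83, with 4 of 6 batches above zero and the highest value in batch 2. None of the 7 genes had the same sign in all 6 batches under IL-6, against 2.23% of all entries. By edgeR's quasi-likelihood test the log2 fold change was 0.20 (95% interval -0.14 to 0.54), with a Benjamini-Hochberg adjusted p of 0.859. Without the batch 2 vehicle it was 0.07. Against IL-6, HMGA2 was higher with TGF-β by 0.38 to 1.07 log2 units in 6 of 6 batches (background 7.16%), and lower with IL-4+IL-13 in 6 of 6, with log2 differences of -1.56 to -0.65 (background 4.51%). As a fold, the interval of the IL-6 fit runs from 0.904 to 1.45.

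HMGA2 also had the widest range between batches. Its normalized count in batch 1 was 6.4 times the median of batches 2 to 6 in vehicle, 4.55 times with TGF-β, 3.89 times with IL-4+IL-13 and 5.6 times with IL-6. IGF2BP3 followed, at 2.72, 2.77, 1.71 and 2.27 times in the same order. The ratio lay between 1.22 and 1.56 for IGF2BP1, 1.08 and 1.26 for IGF2BP2 and 0.82 and 1.15 for HMGA1. It lay between 0.86 and 0.97 for LIN28B and between 0.55 and 1.10 for LIN28A. In batch 1 the neuron marker sum was the lowest of each treatment group (15.46 to 16.27), and the mesenchymal sum was the highest in all groups but IL-4+IL-13. Their part in the HMGA2 and IGF2BP3 values was not tested.

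**Figure D2:**
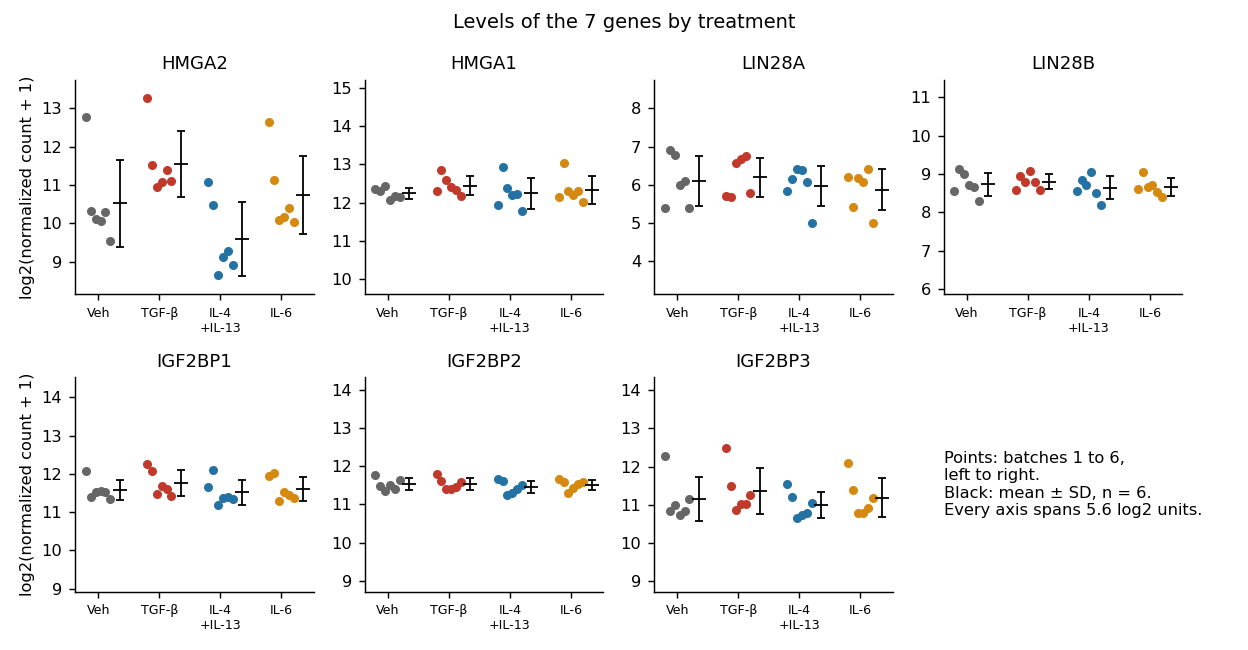
Level of each gene, as log2(normalized count + 1), for each library (points, batches 1 to 6 from left to right) by treatment, with mean ± SD (n = 6) in black and axes of equal span. The mean of HMGA2 runs from 9.59 with IL-4+IL-13 to 11.55 with TGF-β, and batch 1 is far above the other batches for HMGA2 and IGF2BP3.

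The shares of variance of the level over the 24 libraries give the same contrast as a description. For HMGA2, 59.2% of the variance lay between batches, 36.6% between treatments and 4.22% in neither. For the other 6 genes the share between treatments was 5.19% (LIN28A) to 9.01% (IGF2BP1), and the median over all entries tested was 6.77%. The batch share was highest for IGF2BP3 (83.9%) and IGF2BP2 (82.6%), against a median of 54.9%. LIN28A had the largest remainder, at 36.9%.

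**Figure D3:**
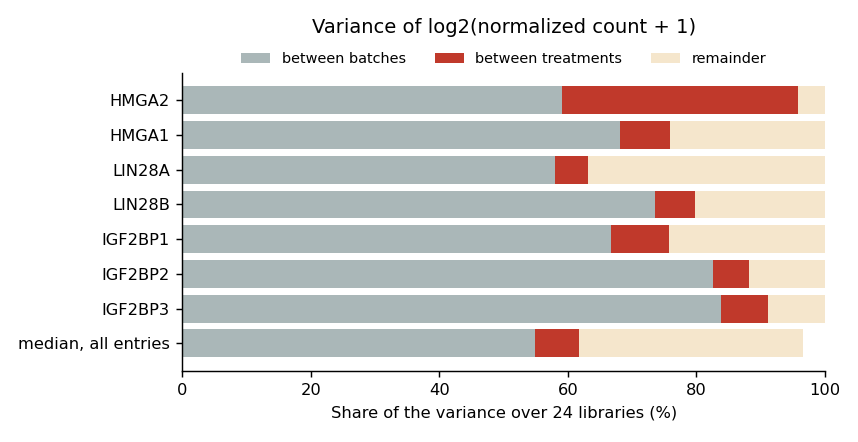
Share of the variance of log2(normalized count + 1) over 24 libraries that lies between batches, between treatments and in neither, for each gene and as the median of all tested entries (whose 3 medians need not add up). HMGA2 has 36.6% between treatments, against 5.19% to 9.01% for the other 6 genes.

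For comparison between genes, normalized counts were divided by the length in kilobases of the MANE Select transcript. On that scale of log2(normalized counts per kb + 1), HMGA1 had the highest level, at 11.38 ± 0.30 (SD, n = 24 libraries). IGF2BP2 followed at 9.41 ± 0.14, IGF2BP3 at 9.08 ± 0.50, HMGA2 at 8.56 ± 1.17 and IGF2BP1 at 8.48 ± 0.30. LIN28B stood at 6.28 ± 0.25 and LIN28A at 4.11 ± 0.51. The neighbours IGF2BP3 and HMGA2, and HMGA2 and IGF2BP1, differed by less than the SD of HMGA2, and IGF2BP2 and IGF2BP3 by less than the SD of IGF2BP3, whereas the steps to LIN28B and to LIN28A exceeded the SD of both neighbours. By treatment, HMGA2 ran from 9.51 ± 0.87 with TGF-β to 7.56 ± 0.96 with IL-4+IL-13 (n = 6 each). With TGF-β it differed from IGF2BP2 (9.44) by less than its SD, and in batches 2 to 6 it stood at 9.16, against 9.39 for IGF2BP2.

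HMGA1, the paralog of HMGA2, passed the test in no comparison. Its normalized count ran from 4291 to 5492 in vehicle (median 4847), from 4584 to 7347 with TGF-β (median 5309), from 3504 to 7759 with IL-4+IL-13 (median 4758) and from 4167 to 8469 with IL-6 (median 4877). The 4 ranges overlapped, and the highest library in each of the 3 cytokine groups was that of batch 2. By edgeR the log2 fold change was 0.18 with TGF-β (95% interval -0.03 to 0.38, adjusted p = 0.776), -0.01 with IL-4+IL-13 (-0.22 to 0.20, adjusted p = 0.991) and 0.08 with IL-6 (-0.12 to 0.29, adjusted p = 0.895). Between TGF-β and IL-4+IL-13 it was 0.19 (-0.02 to 0.39, adjusted p = 0.486).

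The LIN28 genes differed from each other mainly in level. LIN28A was the rarest of the 7, with 31 to 121 counts per library. In vehicle its normalized count was between 40.8 and 118.4 (median 65.6), with TGF-β between 50.2 and 106.4 (74.1), with IL-4+IL-13 between 30.8 and 84.8 (68.2) and with IL-6 between 30.8 and 83.7 (68.5). The groups overlapped over most of their ranges, and none of the fitted changes passed. Relative to vehicle, the log2 fold change of LIN28A was 0.07 with TGF-β (95% interval -0.42 to 0.57), -0.17 with IL-4+IL-13 (-0.66 to 0.32) and -0.24 with IL-6 (-0.74 to 0.25), with adjusted p of 0.984, 0.883 and 0.875 by edgeR. At this depth, a rise of up to 1.48-fold with TGF-β was within the interval.

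LIN28B had 294 to 580 counts per library. Its normalized count was 315.0 to 560.9 in vehicle (median 412.9), 383.4 to 544.6 with TGF-β (444.1), 291.9 to 534.6 with IL-4+IL-13 (395.9) and 336.3 to 534.0 with IL-6 (396.1). Relative to vehicle, the log2 fold change was 0.07 (-0.11 to 0.25, adjusted p = 0.964), -0.08 (-0.26 to 0.10, adjusted p = 0.831) and -0.07 (-0.25 to 0.11, adjusted p = 0.904) for the 3 treatments in that order, by edgeR. LIN28B was higher with TGF-β than after IL-4+IL-13 in 6 of 6 batches, but by only 0.03 to 0.40 log2 units, and the fitted 0.15 did not pass (95% interval -0.03 to 0.33, adjusted p = 0.555 by edgeR).

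The IGF2BP genes encode the RNA-binding partners of the program. IGF2BP3 came closest to passing. Its normalized count was 1705 to 4993 in vehicle (median 1946), 1877 to 5778 with TGF-β (2276), 1606 to 3001 with IL-4+IL-13 (1944) and 1764 to 4382 with IL-6 (2132). The groups overlapped, and the highest value of each was that of batch 1. Within batches, IGF2BP3 was higher with TGF-β than after IL-4+IL-13 in 6 of 6, by 0.21 to 0.30 log2 units in batches 2 to 6 and by 0.95 in batch 1. The fitted log2 fold change was 0.36 ± 0.10 (SE; 95% interval 0.15 to 0.57), with an adjusted p of 0.0563 by edgeR over all entries, which missed the threshold of 0.05.

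That call for IGF2BP3 moved with the processing. DESeq2's Wald test gave an adjusted p of 0.0154, in a comparison where it called 5.35% of all entries, and edgeR with a stricter filter on low counts gave 0.0396, with 4.16% called. Without the batch 2 vehicle edgeR gave 0.00788 (4.93% called) and without all of batch 2 it gave 0.0217 (4.92% called). Without batch 1 the log2 fold change was 0.25 and the adjusted p 0.200. IGF2BP3 also missed the threshold without batch 3, 4, 5 or 6. The lowest adjusted p of the 6 tested genes there was 0.123 to 0.158 by edgeR. By the same test it did not pass in the 18 libraries without IL-6 (lowest 0.173) or without a filter on low counts (0.0693). Nor did it pass with DESeq2 size factors (0.0532) or with batch left out of the model. Relative to vehicle, IGF2BP3 had log2 fold changes of 0.21 with TGF-β (adjusted p = 0.675), -0.15 with IL-4+IL-13 (adjusted p = 0.687) and 0.04 with IL-6 (adjusted p = 0.959) by edgeR.

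IGF2BP1 had normalized counts of 2611 to 4337 in vehicle (median 2963), 2757 to 4868 with TGF-β (3215), 2344 to 4396 with IL-4+IL-13 (2674) and 2518 to 4158 with IL-6 (2868). The ranges overlapped. IL-4+IL-13 gave the lowest library in 5 of 6 batches, and in batch 2 the vehicle was lowest, as for HMGA2. Between TGF-β and IL-4+IL-13 the log2 fold change was 0.23 (95% interval 0.02 to 0.44, adjusted p = 0.341 by edgeR). It passed without the batch 2 vehicle (0.23, adjusted p = 0.0245) and without batch 2 (0.28, adjusted p = 0.00824), by the same test. Relative to vehicle, the log2 fold changes of IGF2BP1 were 0.16, -0.07 and 0.01 with TGF-β, with IL-4+IL-13 and with IL-6, none of which passed (adjusted p = 0.828, 0.893 and 0.997 by edgeR).

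IGF2BP2 varied least. Its normalized count was between 2425 and 3542 in all 24 libraries, with medians of 2897, 2934, 2807 and 3013 in vehicle, with TGF-β, with IL-4+IL-13 and with IL-6. The log2 fold change relative to vehicle was 0.00 with TGF-β (95% interval -0.10 to 0.11), -0.07 with IL-4+IL-13 (-0.18 to 0.03) and -0.02 with IL-6 (-0.12 to 0.08), with adjusted p of 1, 0.681 and 0.962 by edgeR. As folds, these 3 intervals lie between 0.885 and 1.08.

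**Figure D4:**
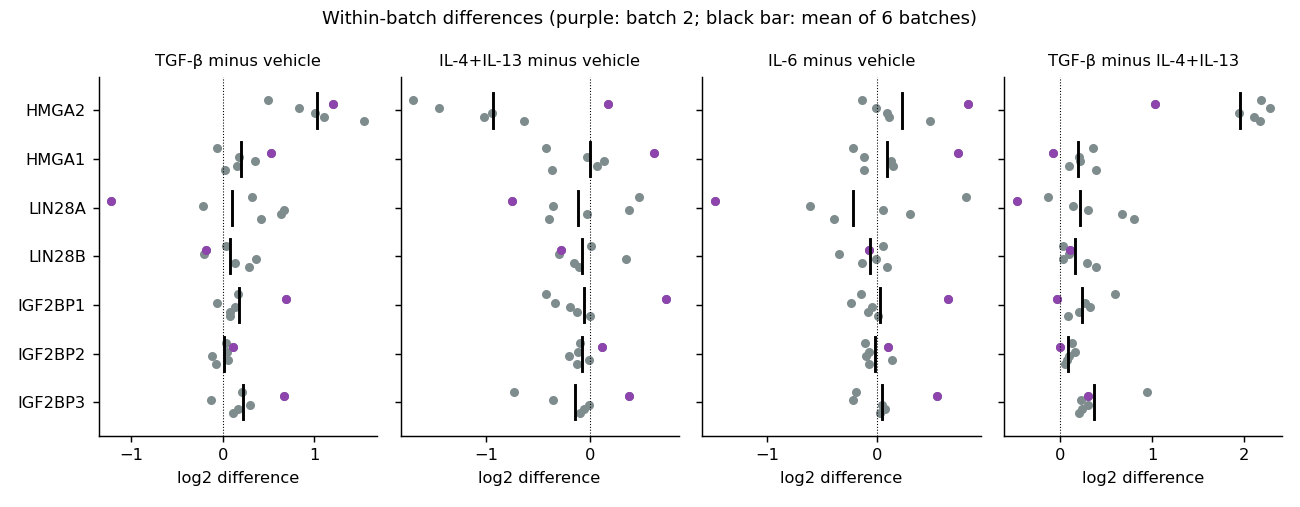
Within-batch differences in log2(normalized count + 1) for each gene (rows) in 4 comparisons (panels), with 1 point per batch, batch 2 in purple and the mean of 6 batches as a black bar. The mean of HMGA2 lies apart from those of the other 6 genes in the panels for TGF-β and for IL-4+IL-13, and batch 2 is the highest point of HMGA1, IGF2BP1, IGF2BP2 and IGF2BP3 in the TGF-β and IL-4+IL-13 comparisons with vehicle and the lowest of LIN28A.

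Over the 6 genes other than HMGA2, none passed an adjusted p of 0.05 in any of the 6 comparisons by edgeR. At an unadjusted p under 0.05 there were 1 for TGF-β against vehicle, 2 for TGF-β against IL-4+IL-13 and 0 in the other 4 comparisons. DESeq2 called 1 of the 6, IGF2BP3, in the direct contrast and 0 in the others. The background by edgeR was low: 0.347% of all entries passed with TGF-β, 0.633% with IL-4+IL-13 and 2.98% between them. It was 0.0783% between TGF-β and IL-6, 0.456% between IL-4+IL-13 and IL-6, and 0% for IL-6 against vehicle, where 1400 entries were under 0.05 before adjustment and 132 were called by DESeq2. With backgrounds this low, a count of 0 among 6 genes does not set them apart from other entries. All 6 had a fitted log2 fold change above zero in the direct contrast, with a median of 0.21, against -0.00 over all entries. Relative to vehicle the median of the 6 was 0.12 with TGF-β, -0.08 with IL-4+IL-13 and -0.00 with IL-6, and these contrasts share their vehicle libraries.

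Markers of dividing cells, whose genes vary with the same batch, are given beside these values. The summed level of 10 such markers in batch 2 was 11.65 in vehicle, 14.07 with TGF-β, 14.51 with IL-4+IL-13 and 14.35 with IL-6, against 10.34 to 12.67 in the other vehicle libraries. The 6 neural progenitor markers had summed levels of 14.06 in the batch 2 vehicle and of 15.09, 15.14 and 15.16 in the cytokine libraries of batch 2. HMGA1 was highest in those same cytokine libraries, and IGF2BP1 was highest there with IL-4+IL-13 and IL-6. Over all batches, 0 of the 10 dividing cell markers passed with TGF-β or with IL-4+IL-13 by edgeR (0 and 4 at an unadjusted p under 0.05, 0 and 0 by DESeq2), with median log2 fold changes of 0.46 and 0.92. Without the batch 2 vehicle these medians were 0.14 and 0.58. Of 10 markers of the pluripotent state, POU5F1, NANOG, ZFP42 and PRDM14 reached at most 9.9 normalized counts in any library and L1TD1 at most 29.7. The other 5 were higher: SOX2, which neural progenitors share, ran from 303.8 to 6438, DNMT3B from 255.9 to 2230, DPPA4 from 243.1 to 1918, SALL4 from 75.4 to 260.0 and TDGF1 from 5.57 to 280.9. The summed level of the 10 in batch 2 was 10.99 in vehicle, 13.28 with TGF-β, 13.19 with IL-4+IL-13 and 13.39 with IL-6. SOX2, DNMT3B and DPPA4 made up most of that sum, so it is not a measure of pluripotent cells. SOX2 is also counted in the neural progenitor sum. The part of the cells that carry these markers in the values of the 7 genes was not tested.

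Across the 24 libraries, with the batch mean removed from each gene, IGF2BP1 and IGF2BP3 varied most alike among the 7, with r = 0.88. HMGA2 had r = 0.77 with IGF2BP3, 0.67 with IGF2BP1, 0.59 with HMGA1 and 0.57 with IGF2BP2, but 0.41 with LIN28B and 0.15 with LIN28A. LIN28A and LIN28B had r = 0.60 with each other, and LIN28A was at -0.31 to -0.18 with the IGF2BP genes. These are descriptions over libraries that share batches, treatments and the unusual vehicle of batch 2.

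Among 13289 genes with a mean normalized count of at least 50, the 10 with a within-batch pattern most like that of HMGA2 had r from 0.89 to 0.95. CLEC18B, CLEC18A and CLEC18C came first, at 0.95, 0.94 and 0.94. They are near-identical copies of a C-type lectin gene among which reads can be split, so they count as 1 pattern of uncertain source. SOST (0.92), a secreted inhibitor of WNT signalling, STK38L (0.92), a kinase of the Hippo family, and IL11 (0.91), a cytokine known to respond to TGF-β, were next. EPHB2 (0.91), an ephrin receptor, TFPI2 (0.90), a protease inhibitor of the matrix, MMP7 (0.89), a matrix metalloproteinase, and R3HDML (0.89) completed the list. Their mean within-batch differences between TGF-β and IL-4+IL-13 ran from 0.53 for EPHB2 to 3.71 for MMP7, against 1.96 for HMGA2. IL11 was the nearest to HMGA2 in size, with mean differences of 1.10 with TGF-β and -0.76 with IL-4+IL-13 relative to vehicle. The study had named CLEC18A, CLEC18B, CLEC18C, STK38L, IL11 and MMP7 as raised by TGF-β in these libraries. It had also listed R3HDML with HMGA2 on the same principal component. The likeness is therefore a description in the libraries on which HMGA2 was selected.

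For HMGA1 the most similar genes were SEMA6B (r = 0.92), SLC1A5 (0.90) and NES (0.87), the last a neural progenitor filament gene. For IGF2BP1 they were ZNF532 (0.93), PTK2 (0.91) and UNC5B (0.90), and for IGF2BP3 RAP2B (0.91), JAG1 (0.91) and GLIPR2 (0.89). LIN28A had MCF2L2 (0.91), LOC124900338 (0.89) and LRRK1 (0.89), LIN28B had SOCS4 (0.86), TMEM167A (0.86) and VKORC1L1 (0.84), and IGF2BP2 had BCORL1 (0.78), FGD6 (0.77) and TCOF1 (0.76).

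Other genes known as let-7 targets were tested in the same fit. Of 18 such genes, among them NRAS, the cyclins CCND1 and CCND2, MYC, MYCN and DICER1, 0 passed in any of the 6 comparisons by edgeR. At an unadjusted p under 0.05 there were 1 with TGF-β, 2 with IL-4+IL-13 and 3 in the direct contrast, and DESeq2 called 0 in each. With 0.347%, 0.633% and 2.98% of all entries called in these comparisons, a count of 0 does not set the list apart. Their median log2 fold change was 0.06 with TGF-β and -0.04 with IL-4+IL-13, against -0.01 for all entries in both, and 0.03 in the direct contrast. The individual values ran from -0.29 (TRIM71) to 0.24 (CDC25A) with TGF-β and from -0.23 (MYC) to 0.36 (CDC25A) with IL-4+IL-13. MYC had the largest difference between the treatments, 0.45 (SE 0.17, adjusted p = 0.238 by edgeR). Without the batch 2 vehicle MYC passed in that contrast (0.44, adjusted p = 0.00881), and without all of batch 2 it passed there (0.49, adjusted p = 0.00741) and with TGF-β against vehicle (0.48, adjusted p = 0.0467), by the same test.

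The machinery that makes, uses or destroys let-7 was covered by 16 tested genes. They included DROSHA and DGCR8, which cut the primary transcript, XPO5, which exports the precursor, DICER1, which cuts it again, and the Argonautes AGO1 to AGO4. They also included TUT4 and TUT7, which add uridines to precursors bound by LIN28A, and DIS3L2, which degrades them. By edgeR 0 of the 16 passed in any comparison, with 1 at an unadjusted p under 0.05 with TGF-β, 0 with IL-4+IL-13 and 2 in the direct contrast. Against the same backgrounds as for the targets, this count does not set the list apart either. DESeq2 called 1 in the direct contrast, where it called 5.35% of all entries, namely AGO2 (0.19, adjusted p = 0.0202), which also passed in edgeR without the batch 2 vehicle (0.18, adjusted p = 0.0215). The fitted log2 fold changes of the 16 lay between -0.29 (TRIM71, which is also counted among the targets) and 0.13 (AGO2) with TGF-β. With IL-4+IL-13 they lay between -0.15 (DICER1, likewise in both lists) and 0.13 (DIS3L2). Of the genes that host let-7 copies, HUWE1, WDR82 and SPACA6 were tested, and their changes in the 3 comparisons with vehicle were between -0.30 and 0.04, with none passing by edgeR. Mature let-7 RNAs were not analysed here.

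**Figure D5:**
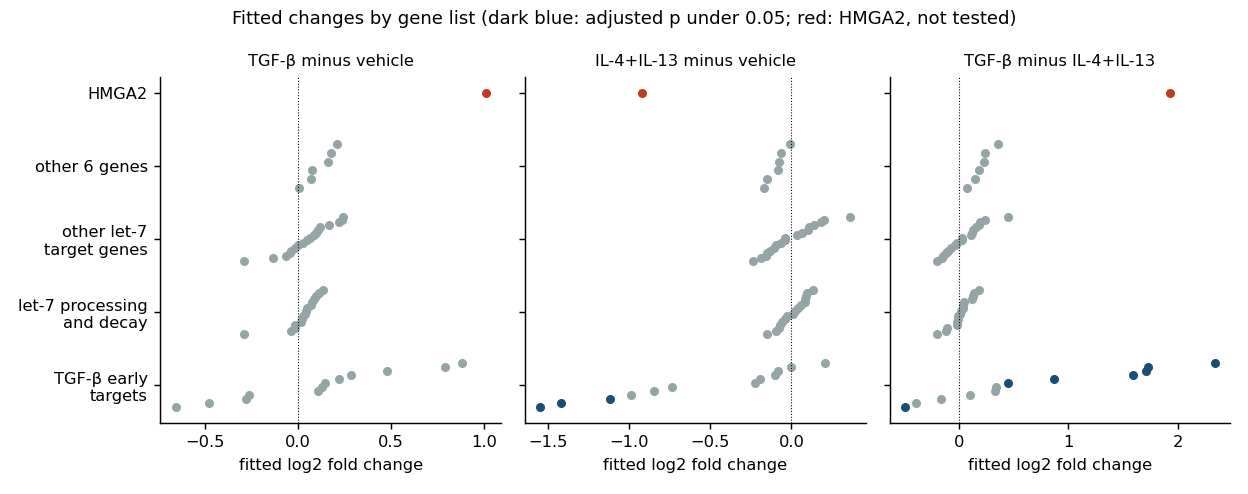
Fitted log2 fold changes of HMGA2 (red, not tested), of the other 6 genes and of 3 gene lists in 3 comparisons, with each point 1 gene and dark blue for an adjusted p under 0.05 by edgeR. The other let-7 targets and the processing genes have no gene in dark blue in any panel, and TGF-β early targets pass in the panels that involve IL-4+IL-13.

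Of RNAs known to be bound by IGF2BP or LIN28 proteins, 4 were tested. IGF2 had fitted log2 fold changes of -0.05 with TGF-β and 0.17 with IL-4+IL-13, ACTB of 0.01 and -0.05, and BTRC of -0.10 and -0.05, with none of the 3 passing by edgeR. CD44, which encodes a hyaluronan receptor, was among the same principal component genes as HMGA2 and is likewise described without a test. Its fitted log2 fold change was 1.69 with IL-4+IL-13, opposite in sign to HMGA2, and -0.19 with TGF-β. The CD44 mean normalized count was 12522 with IL-4+IL-13, against 3968 in vehicle.

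Early targets of TGF-β signalling, a list of 12, were measured in the same cultures. With TGF-β, 0 of 12 passed by edgeR, although 6 were under 0.05 before adjustment. DESeq2 called 2, among 504 of 29377 entries. The median log2 fold change was 0.14, over genes that moved in opposite directions, from -0.66 to 0.88. SKIL and SKI were higher than in vehicle in 6 of 6 batches, and SMAD6 and ID1 in 0 of 6. Without the batch 2 vehicle PMEPA1, an inhibitor of the pathway, passed with TGF-β by edgeR (1.08, adjusted p = 0.0196), and the list median was 0.23. With IL-4+IL-13, where 0.633% of all entries passed by edgeR, 3 of 12 fell. Among them TGFBI, which encodes a matrix protein, fell by 1.55, and LTBP2, which encodes a latent TGF-β binding protein, by 1.12. Of the 3, 1 was still called without batch 1 and 2 without the batch 2 vehicle. LTBP2 missed the threshold without that vehicle (-0.84, adjusted p = 0.108 by edgeR). It also missed it without batch 2 (0.0889), without batch 3 (0.188) and with DESeq2 size factors (0.0523), by the same test. In the direct contrast, where 2.98% of all entries passed by edgeR, 6 of 12 were higher with TGF-β and 1 was lower. Those higher included SKIL (0.45), TGFBI (2.34), CCN2 (0.87), LTBP2 (1.59) and PMEPA1 (1.73), and BAMBI, a pseudoreceptor, was lower (-0.49). By edgeR the BAMBI call was lost without batch 3 (adjusted p = 0.317), batch 4 (0.237) or batch 5 (0.164). It was also lost with DESeq2 size factors (0.0536), without a filter on low counts (0.0508) and in the 18 libraries without IL-6 (0.118). CCN2 missed the threshold without batch 1 (0.0586) or batch 5 (0.0528). Of 10 genes of the epithelial-mesenchymal transition, in which HMGA2 acts upstream of SNAI1 in other cells, 3 were higher with TGF-β than after IL-4+IL-13. These were SNAI1 (0.92), FN1 (1.49) and CDH1 (1.27), called by edgeR against the same 2.98%. CDH1 encodes the epithelial cadherin, so the 3 do not stand for 1 direction of the transition. Without batch 1, 0 of the 10 passed in that contrast (5 at an unadjusted p under 0.05). By edgeR the 3 also missed the threshold without batch 3 (adjusted p of 0.137 to 0.189), batch 5 (0.0567 to 0.141) or batch 6 (0.0597 to 0.188). In the 18 libraries without IL-6 they missed it as well (0.0633 to 0.125). Without batch 4, SNAI1 (0.0743) and FN1 (0.0999) missed it, and without a filter on low counts CDH1 did (0.0514). Without the batch 2 vehicle FN1 passed with TGF-β against vehicle (1.40, adjusted p = 0.0226 by edgeR). CDH1 also fell with IL-4+IL-13 relative to vehicle, by 1.89. By edgeR that call was lost without batch 1 (adjusted p = 0.0986) and without batch 3 (0.0719). It was also lost in the 18 libraries without IL-6 (0.0649) and with batch left out of the model. With TGF-β, CDH1 was higher than in vehicle in 3 of 6 batches, with mean normalized counts of 165.6 against 229.8.

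Levels of cell type markers are given beside these results. In the direct contrast 1 of 9 mesenchymal markers passed by edgeR, COL1A1, which was higher with TGF-β by 1.31. The median log2 fold change of the 9 was 0.07 and the lowest -0.30. By the same test 1 of 7 markers of Schwann and satellite glia was higher with TGF-β, and 1 of 10 neuron markers was lower. Of all entries, 2.98% passed in that contrast. COL1A1 and COL1A2 contributed most to the summed mesenchymal level. This level was between 16.82 and 18.54 in vehicle, 17.19 and 18.91 with TGF-β and 16.55 and 17.80 with IL-4+IL-13. The summed level of 7 markers of Schwann and satellite glia was between 11.11 and 12.02, 11.74 and 12.61, and 11.14 and 11.98 in the same order, and that of the 10 neuron markers between 15.57 and 17.53, 15.46 and 17.69, and 16.27 and 17.50. Their part in the HMGA2 differences was not tested.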

How the data were processed

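The deposited values were raw counts of reads per gene in 24 libraries. Per the labels and the methods of the study, the authors had the reads trimmed with Trimmomatic 0.30 and mapped to GRCh38.p14. Aligner, counter and strandedness are not given in the sources used here. Entries with a total under 10 counts were left out, which kept 29377. Counts were tested with edgeR 4.0.16 (R 4.3.3, TMM, robust quasi-likelihood F test) on batch and treatment over all 24 libraries, with Benjamini-Hochberg adjustment over all entries and a threshold of 0.05. Alternatives included DESeq2 1.42.0. Levels are log2(normalized counts + 1) with DESeq2 size factors. The replicate number in the labels is the batch, which pairs the samples: pairs of libraries from 1 batch had a median r of 0.60 (36 pairs), and pairs from different batches of -0.16 (240 pairs). Standard errors were derived from the F statistic. The script was tested on simulated data. Named genes were the 7 members, genes of fixed lists, the 10 genes most like HMGA2 within batches and the 3 most like each other member. Members and lists were chosen with earlier results of these data known. The study treats the batches as separate differentiations, so p-values measure the spread between differentiations of 1 line. MANE Select regions were read from GENCODE v44, and microRNAs and gene spans from RefSeq. Some genes of the fixed lists are counted with their list and not reported singly here.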

Additional observations from a re-analysis of the deposited data

Results flagged for a closer look

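In 11 of 70 groups of 6 values, 1 batch lay far from the other 5: its gap to the nearest value exceeded 0.625 of the whole range. Chance flags about 1 in 20 such groups, and groups that share a library are not independent.

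Batch 1 was the highest batch in 4 level groups and stood apart in 2 differences. The level of HMGA2 was 12.78 in its vehicle library and 13.28 with TGF-β, that of IGF2BP1 was 12.08 in vehicle and that of IGF2BP3 12.29 in vehicle. The IGF2BP3 log2 difference in batch 1 was 0.95 between TGF-β and IL-4+IL-13 and -0.55 between IL-4+IL-13 and IL-6.

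Batch 2 gave the other flags. The HMGA2 difference between TGF-β and IL-4+IL-13 was lowest there, at 1.03, and the HMGA1 level with IL-6 was highest, at 13.05. The IGF2BP1 differences from vehicle were highest there in all 3 treatments, at 0.69 with TGF-β, 0.72 with IL-4+IL-13 and 0.64 with IL-6, and all 3 use the same vehicle library. The cause was not tested.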

How the results depend on the processing

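The number of genes passing depended on the processing. In the order TGF-β against vehicle, IL-4+IL-13 against vehicle, IL-6 against vehicle, TGF-β against IL-4+IL-13, TGF-β against IL-6 and IL-4+IL-13 against IL-6, the counts were 102, 186, 0, 874, 23 and 134. DESeq2 gave 504, 574, 132, 1572, 500 and 396. Without the replicate block that pairs the libraries of a batch, they were 0, 13, 0, 51, 0 and 14. Requiring a doubling as well left 42, 109, 0, 347, 9 and 82. The 18 libraries without IL-6 gave 12, 93 and 524 in the comparisons they allow. TGF-β against IL-6 gave 14 without a filter on low counts and 54 with a stricter one. Without the vehicle library of batch 2, an alternative chosen after seeing the data, the counts were 116, 224, 0, 1443, 164 and 220. Leaving out 1 batch at a time gave 1 to 133, 76 to 234, 0 to 0, 390 to 1423, 1 to 70 and 66 to 227. The cause was not tested.

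HMGA2 kept its sign in all settings and comparisons run. Of the other members' fold changes, 24 of those recomputed changed sign, all without passing. HMGA1 with IL-4+IL-13 was 0.0441 without the replicate block and 0.0022 in 18 libraries. With 1 batch, or only the batch 2 vehicle, left out, the fold changes against vehicle with TGF-β ran from -0.0364 to 0.348 for LIN28A and from -0.0313 to 0.0419 for IGF2BP2. With IL-4+IL-13 they ran from -0.129 to 0.0792 for HMGA1, -0.273 to 0.0896 for LIN28A and -0.219 to 0.0047 for IGF2BP1. With IL-6 they ran from -0.0420 to 0.149 for HMGA1, -0.459 to 0.0315 for LIN28A, -0.108 to 0.0649 for IGF2BP1, -0.0507 to 0.0040 for IGF2BP2 and -0.0561 to 0.0963 for IGF2BP3. Between cytokines they ran from -0.0004 to 0.0530 for IGF2BP2 in TGF-β against IL-6. For IL-4+IL-13 against IL-6 they ran from -0.0373 to 0.187 for LIN28A and from -0.0844 to 0.0259 for LIN28B. LIN28A, with 31 to 121 counts per library, is the member whose precision depth limits most.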
